A study of Mus musculus with 12 samples.

Results

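RNA of the whisker territory and the upper lip territory of the newborn mouse thalamus was compared in 8 control libraries, which are 8 of the 12 libraries of the series. They were chosen by their labels alone: 4 are Ctrl PMBSF and 4 are Ctrl ALBSF, and the libraries of each territory carry the title numbers 1 to 4. All came from pups labelled control at postnatal day 0, with no strain, genotype or transgene given in the labels. Each library was made from tissue pooled over 5 brains, which were cut into 300 µm sections before the 2 territories were microdissected. The other 4 libraries, labelled embWPC ALBSF, were not used here.

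The ventroposterior medial nucleus relays touch from the face to the somatosensory cortex. Its neurons are laid out as a map of the face, and their axons carry that map into the barrel fields of layer 4. The posteromedial barrel subfield (PMBSF) holds the large barrels of the long whiskers of the whisker pad. The anterolateral barrel subfield (ALBSF) holds the small barrels of the upper lip. In rodents the map takes shape around birth, when the axons of the relay neurons are reaching the cortex. The libraries hold RNA of all cells in the dissected tissue.

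The 4 ALBSF libraries held 28457046 to 31850727 counts each and the 4 PMBSF libraries 31921767 to 34512840. Slc17a6, which encodes the glutamate transporter that relay neurons use to fill their vesicles, was at 392, 338, 377 and 379 CPM (read counts relative to the library total, after TMM scaling) in ALBSF numbers 1 to 4 and at 351, 392, 378 and 405 in PMBSF. The transcription factor gene Lef1, a marker of thalamic neurons, stood at 99.3–107 CPM in ALBSF and 86.4–106 CPM in PMBSF. Gad2, which marks the GABAergic neurons of the neighbouring reticular nucleus, stayed between 0.963 and 8.40 CPM in all 8. Slc17a6 and Lef1 were thus present in every library, with overlapping ranges in both territories. Other relay neuron genes, Tcf7l2 and Rora among them, did not overlap between the territories. In the test given below, 17 of 38 relay neuron genes (44.7%) differed, against 5.04% of all genes tested.

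Same-numbered libraries deviated together. For each library the deviation of every gene from the mean of its territory was taken, and these deviations were correlated across the 17000 genes tested. Libraries with the same number gave 0.40, 0.20, 0.33 and 0.42 for numbers 1 to 4, and the 12 other-numbered pairs gave -0.23 to 0.05. By this the numbers pair the libraries, and the number was a term of the model.

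The 2 libraries numbered 2 nevertheless went apart in sex-linked RNA. Xist, the transcript of the inactive X chromosome of females, was at 22.3, 69.1, 0.0696 and 15.6 CPM in ALBSF numbers 1 to 4 and at 21.7, 0.0617, 0.113 and 15.05 CPM in PMBSF. The summed level of the Y-linked genes Ddx3y, Eif2s3y, Kdm5d and Uty was 44.2, 0.0708, 125 and 93.1 CPM in ALBSF and 28.0, 138, 138 and 81.0 CPM in PMBSF. ALBSF number 2 had 2 Y-linked counts and PMBSF number 2 had 4485, whereas numbers 1, 3 and 4 carried like levels in both territories. The log2 ratio of the Y-linked sum to Xist differed between territories by -0.62, -0.55 and -0.14 for numbers 1, 3 and 4, and by 21.06 for number 2. Over all 4 numbers, the mean absolute difference of same-numbered libraries was 5.59 and gave a one-sided p = 0.333 in an exact permutation test over the 24 matchings, where 0.0417 is the smallest possible.

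Some other transcripts were alike in libraries of the same number. Among the genes that varied most by number, which were picked by that variation and are given as description, the processed pseudogene Rps2-ps10 was at 2.92, 21.7, 2.37 and 1.53 CPM in ALBSF and 1.98, 25.2, 1.35 and 1.42 CPM in PMBSF, high in both libraries numbered 2. Rps2-ps13 was high in both libraries numbered 1, with 166, 1.17, 0.765 and 0.897 CPM in ALBSF and 131, 0.895, 0.648 and 0.315 CPM in PMBSF. Pop4, a subunit gene of ribonuclease P, was lowest in both numbered 1, with 20.5, 57.9, 88.4 and 75.4 and 21.7, 51.7, 81.6 and 84.8 CPM. Gm21321, another pseudogene, was at 6.57, 0.0354, 6.02 and 0.00 CPM and at 8.55, 0.00, 4.42 and 0.00 CPM, with reads mainly in numbers 1 and 3 of both territories. In all, 701 genes (4.12%) differed by number at an adjusted p under 0.05, and 802 (4.71%) when only numbers 1, 3 and 4 were fitted. They included 75 of 953 pseudogenes (7.87%) and 576 of 14066 protein coding genes (4.09%), and near-identical copies share reads in ways the counting settings, which are not stated, could shift. Since the libraries numbered 2 went against their shared number in sex-linked RNA, the counts over all genes and those of several lists are given with and without them, and a gene's call lost without them is named beside it.

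**Figure D1:**
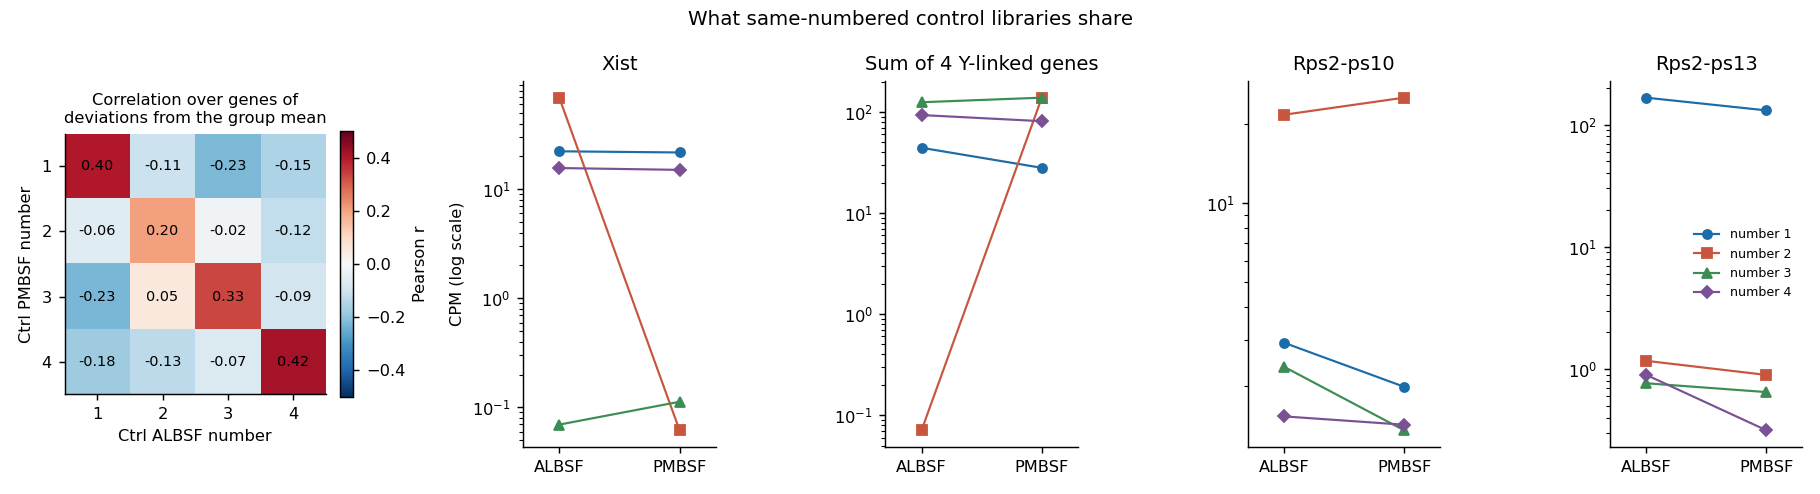
Left, correlation over genes of each library's deviation from its territory mean, Ctrl PMBSF number (rows) against Ctrl ALBSF number (columns). Right, CPM on log axes of Xist, of 4 summed Y-linked genes and of the pseudogenes Rps2-ps10 and Rps2-ps13 in each library, with a line joining libraries of the same number: the lines of number 2 cross for the sex-linked RNAs and stay level for both pseudogenes.

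With the number as a term, 857 of 17000 genes (5.04%) differed between the territories at a Benjamini-Hochberg adjusted p under 0.05 in edgeR's quasi-likelihood test. Of these, 413 were higher in PMBSF (2.43%) and 444 were lower (2.61%), and 787 were protein coding. The direction was shared by all 4 numbers for 852 of the 857 genes (27.5% of all genes tested), and for 575 of them the 4 PMBSF libraries lay wholly above or below the 4 ALBSF libraries (8.45% of all). Both follow in part from the test that chose the 857 and support nothing further. Differences were mostly modest: the median absolute log2 difference of the called genes was 0.51, and 82 genes were at least 2-fold higher and 71 at least 2-fold lower. In bulk tissue, more cells that express a gene cannot be told apart from more of its RNA per cell.

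The number term carried much of this yield. Without it, 230 genes were called (1.35%), all of them among the 857, with 111 higher (0.653%) and 119 lower (0.7%). The biological coefficient of variation was 9.86% with the number and 15.6% without it. Leaving out both libraries numbered 2 left 536 genes (3.15%), with 236 higher (1.39%) and 300 lower (1.76%), and 491 of the 857 stayed called, none with another sign. Without number 1, 3 or 4 the counts were 979, 378 and 311. Whichever number was left out, 250 of the 857 genes stayed called (109 higher, 141 lower). With the number as a term, level differences that same-numbered libraries share are taken out. Those p-values then measure how the territory difference varied from number to number, in these pools only. When libraries were scaled by their totals alone, 1040 genes were called (6.12%), 741 higher (4.36%) and 299 lower (1.76%), and the median of all genes moved up by 0.097 on the log2 scale. In that fit edgeR estimated infinite prior degrees of freedom, against 8.35 with TMM scaling, so its p-values took nothing from the spread of the single gene. The 89 genes with a mean of 1000 CPM or more held 31.5, 34.0, 37.4 and 34.6% of the counts in ALBSF numbers 1 to 4 and 28.2, 34.2, 28.3 and 32.0% in PMBSF. Of them 85 had a log2 difference under 0, and 66 did under scaling by totals.

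**Figure D2:**
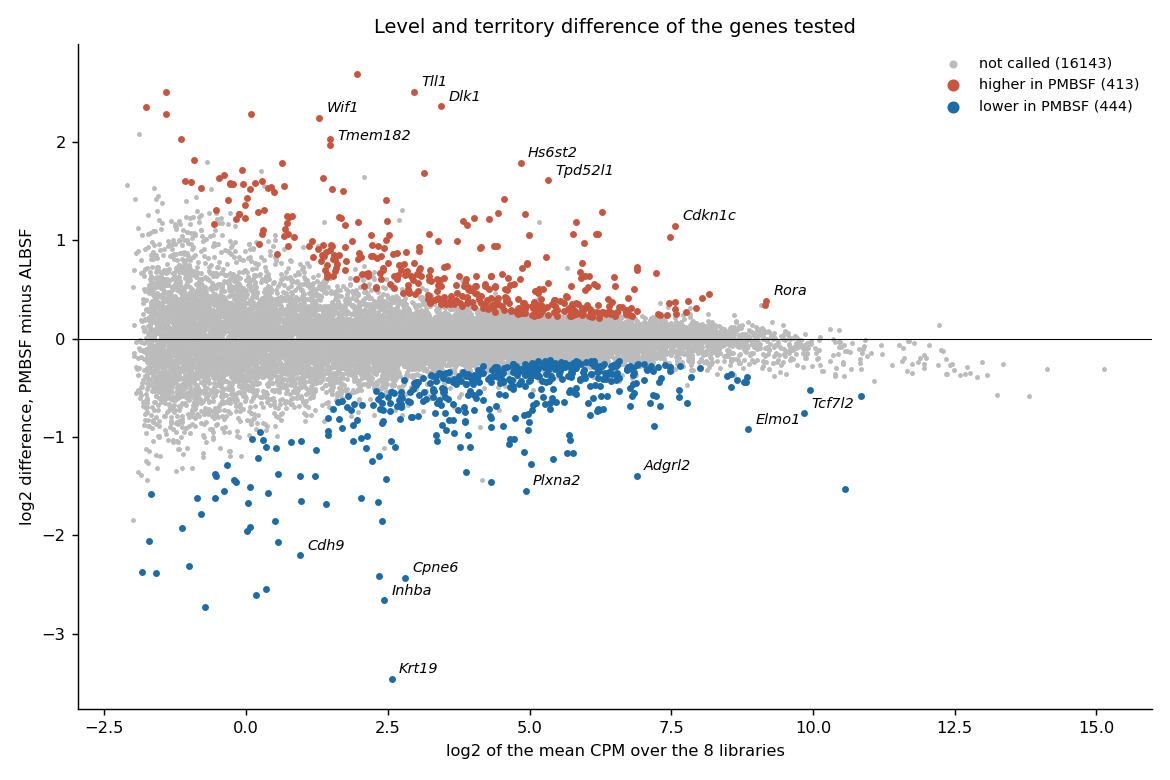
Each point is 1 of 17000 genes, with the log2 of its mean CPM over the 8 libraries on the x axis and the log2 difference, PMBSF minus ALBSF, on the y axis. The 413 genes higher in PMBSF and the 444 lower ones spread over the whole range of levels, and the most abundant genes lie mostly a little below 0.

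The genes with the smallest p-values separated the territories without overlap. Tpd52l1, which encodes a tumour protein D52 family member of vesicle traffic (chromosome 10, 31208364 to 31322204 of GRCm39), was at 25.0, 22.5, 16.8 and 14.5 CPM in ALBSF numbers 1 to 4 and at 83.3, 61.8, 51.1 and 45.1 CPM in PMBSF. Every PMBSF library stood above every ALBSF library, and the log2 difference was 1.61 ± 0.07 (SE, n = 4 per group, adjusted p = 5.49e-07). Adgrl2, the adhesion G protein-coupled receptor latrophilin 2 (chromosome 3, 148518957 to 148696229), stood at 175, 161, 174 and 179.7 CPM in ALBSF and at 64.0, 67.8, 64.5 and 66.1 CPM in PMBSF. Levels within each territory were nearly the same, and Adgrl2 was 2.63-fold lower in PMBSF (adjusted p = 6.24e-07). Plxna2, a plexin receptor for class 6 semaphorins (chromosome 1, 194300526 to 194499177), was at 34.2, 47.4, 51.2 and 48.7 CPM in ALBSF and at 10.9, 14.9, 19.04 and 18.0 CPM in PMBSF. Number 1 was lowest in both territories, and the log2 difference was -1.54 ± 0.07 (adjusted p = 6.24e-07).

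Tll1, which was among the largest rises, is a metalloprotease of the tolloid family that releases BMPs from chordin (chromosome 8, 64466142 to 64659305). It was at 3.22, 2.97, 1.91 and 1.33 CPM in ALBSF and at 15.9, 15.6, 10.3 and 10.9 CPM in PMBSF, 5.69-fold higher (adjusted p = 1.81e-06). Hs6st2, a sulfotransferase that adds 6-O-sulfate to heparan sulfate (chromosome X, 50476089 to 50770733), was at 17.4, 13.2, 9.88 and 11.5 CPM and at 52.1, 47.2, 43.6 and 35.1 CPM, 3.45-fold higher (adjusted p = 1.49e-06). Angpt2, a ligand of the Tie2 receptor known from vessels, was at 15.7, 13.3, 12.5 and 9.53 CPM and at 35.8, 31.7, 28.8 and 26.6 CPM, a log2 difference of 1.28 ± 0.08 (adjusted p = 3.79e-06). In all 3 genes the 8 libraries split by territory. Dlk1, an imprinted transmembrane ligand related to Delta (chromosome 12, 109418749 to 109429262), was at 4.98, 3.61, 3.51 and 1.96 CPM in ALBSF and at 16.5, 27.4, 17.0 and 12.02 CPM in PMBSF. PMBSF number 2 had the highest level of Dlk1, and the fold was 5.15 (adjusted p = 1.31e-05). Cdkn1c, an imprinted inhibitor of the cell cycle, rose from 104–142 to 216–301 CPM (2.21-fold higher, adjusted p = 0.000184).

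On the other side, Krt19, a keratin, had the largest fall among genes with a mean of at least 1 CPM. It was at 3.35, 23.3, 11.2 and 6.44 CPM in ALBSF and at 1.25, 0.278, 0.817 and 0.883 CPM in PMBSF, so the ALBSF libraries spread widely while all PMBSF libraries stayed below them (log2 -3.46 ± 0.50, adjusted p = 0.00221). Its differences for numbers 1 to 4 were -1.38, -6.10, -3.67 and -2.78. Without number 2 the log2 difference was -2.69, without number 1 it was -4.22, and with the level of meningeal fibroblast markers as a further term it was -1.09 with an adjusted p of 0.139. Cpne6, a copine that binds membranes in response to calcium, was at 6.87, 7.39, 12.3 and 20.8 CPM and at 1.28, 1.39, 3.10 and 2.81 CPM, 5.39-fold lower (adjusted p = 5.55e-06). Cntn3, a contactin of the immunoglobulin family, was at 6.90, 9.73, 9.11 and 8.10 CPM and at 1.25, 1.33, 2.82 and 1.17 CPM, 5.31-fold lower (adjusted p = 3.85e-05). Tmem182, whose product is known from muscle, went the other way, from 0.743–1.43 CPM to 3.23–5.52 CPM (3.90-fold higher, adjusted p = 0.000269). Each of these genes kept its call whichever number was left out.

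**Figure D3:**
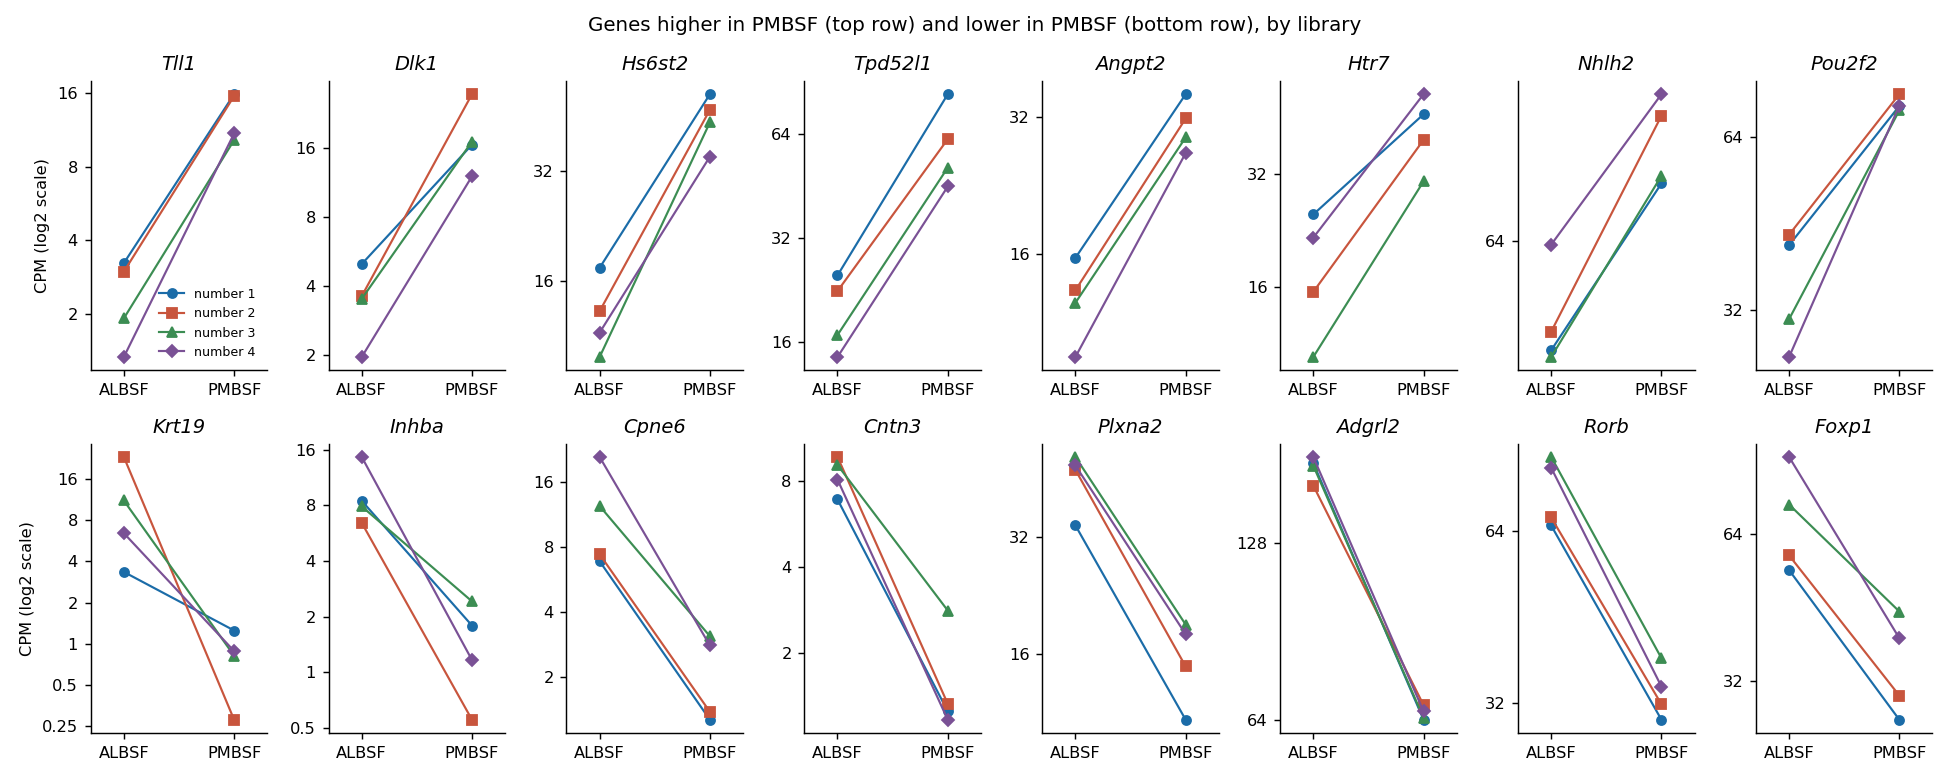
CPM on log2 axes of 16 genes in each control library, with a line joining the ALBSF and PMBSF libraries of the same number. The top row holds genes higher in PMBSF and the bottom row genes lower in PMBSF, and within each panel all 4 lines run in 1 direction.

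Promoter sequences of Hs6st2, Tenm1 and Kcnip4 are shown because these are the 3 called genes with the smallest p-values among the genes named here that carry AGGTCA, the half-site bound by nuclear receptors of the Ror and COUP-TF families. The receptor genes Rorb, Nr2f2 and Rora themselves differed between the territories. Each run gives the 250 bases before a RefSeq start on the gene's own strand, in build GRCm38.p6, with the half-site in capitals (TGACCT is its reverse complement). A gene can have several starts, and whether the start used is the outermost was not tested for Hs6st2 and Kcnip4. In GRCm39 the minus-strand genes Hs6st2 and Tenm1 begin at 50770733 and 42518044. If both shift alike between the builds, the Tenm1 run lies inside the gene, before an inner start.
Hs6st2, chrX:51681603-51681852, minus strand: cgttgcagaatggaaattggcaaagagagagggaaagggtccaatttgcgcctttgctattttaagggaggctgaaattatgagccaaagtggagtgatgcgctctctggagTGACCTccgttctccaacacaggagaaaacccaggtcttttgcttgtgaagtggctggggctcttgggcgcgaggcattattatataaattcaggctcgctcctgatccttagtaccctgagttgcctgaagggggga
Tenm1, chrX:43274785-43275034, minus strand: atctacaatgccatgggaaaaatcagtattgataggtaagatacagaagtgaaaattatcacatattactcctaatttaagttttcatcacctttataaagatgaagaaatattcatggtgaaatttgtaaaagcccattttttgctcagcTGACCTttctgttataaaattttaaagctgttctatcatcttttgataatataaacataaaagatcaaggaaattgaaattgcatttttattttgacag
Kcnip4, chr5:49285660-49285909, minus strand: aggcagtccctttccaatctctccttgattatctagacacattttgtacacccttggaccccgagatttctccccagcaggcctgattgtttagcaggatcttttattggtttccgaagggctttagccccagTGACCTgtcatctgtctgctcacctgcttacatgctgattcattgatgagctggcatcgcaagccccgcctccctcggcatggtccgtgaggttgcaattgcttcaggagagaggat
A half-site on either strand stood in these 250 bases for 46 of 308 genes higher in PMBSF with a promoter in the table (14.9%), for 30 of 308 lower ones (9.74%) and for 1509 of 11678 genes tested (12.9%). Of all 32851 promoters of that length in the table, 4607 (14.02%) held it. A match is a string of letters and not a measured binding site.

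Among transcription factors, Rorb, the orphan receptor known from layer 4 and thalamus, was at 65.3, 67.5, 86.1 and 82.4 CPM in ALBSF and at 29.9, 31.8, 38.3 and 34.2 CPM in PMBSF, 2.24-fold lower (adjusted p = 1.41e-06). Nr2f2, or COUP-TFII, was at 41.2, 35.2, 45.8 and 42.4 CPM and at 11.7, 19.9, 23.0 and 20.9 CPM, 2.23-fold lower (adjusted p = 0.000359). Both receptors were lower in all 4 numbers, with no overlap of the territories. Rora, their relative that thalamic neurons need to mature, was at 501, 491, 495 and 513 CPM and at 620.5, 711, 627 and 657 CPM, higher by a log2 of 0.39 ± 0.08 (adjusted p = 0.0226). That call was lost without number 1 (adjusted p = 0.0576), number 2 (0.0813) or number 4 (0.185). Of 32 nuclear receptor genes tested, 2 were higher and 3 lower (0 and 4 without number 2), and the median log2 difference was -0.04 beside 0.00 for all genes. A median under 0 was common: 41 of the 47 gene lists had one, and 27 did under scaling by totals.

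The LIM-only gene Lmo4, a cofactor in neuronal patterning, was at 33.8, 27.6, 42.1 and 38.96 CPM in ALBSF and at 13.8, 15.3, 21.5 and 19.8 CPM in PMBSF, 2.03-fold lower (adjusted p = 2.84e-05). Foxp1 was at 53.9, 57.8, 73.4 and 91.8 CPM and at 26.7, 29.9, 44.4 and 39.1 CPM (log2 -0.98 ± 0.08, adjusted p = 3.42e-05), and its paralogue Foxp2, a marker of posterior thalamus, at 177, 163, 202 and 218 and 123, 82.8, 93.3 and 112 CPM (log2 -0.89 ± 0.09, adjusted p = 0.000184). The forkhead pair was thus lower in PMBSF in every number. Pou2f2, a POU-domain factor, was at 41.5, 43.3, 30.9 and 26.5 CPM and at 72.6, 76.2, 71.4 and 72.8 CPM, 2.10-fold higher (adjusted p = 0.000115). Nhlh2, a neuronal helix-loop-helix factor, was at 40.7, 43.9, 39.6 and 62.9 CPM and at 81.0, 107, 83.6 and 117 CPM, 2.09-fold higher (adjusted p = 7.35e-06). Ebf1 rose from 7.22–12.3 to 21.1–24.9 CPM and Dmrtb1, of the doublesex family, from 91.7–133 to 212–299 CPM, with adjusted p = 0.000136 and 2.32e-05. In the combined list of POU, SOX, FOX and Zic factors, 6 of 37 tested were higher and 7 lower (9 and 3 under scaling by totals), with a median of -0.12. Homeobox and LIM factors gave 2 higher and 4 lower of 44.

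Called markers of first-order and higher-order relay nuclei lay mostly on opposite sides. First-order nuclei such as the ventroposterior medial nucleus are driven from the periphery, and higher-order nuclei such as the posterior nucleus, which lies beside it, are driven from the cortex. Of 14 first-order markers tested, 6 were higher in PMBSF (Hs6st2, Tnnt1, Tll1, Pou2f2 and Rora among them), none lower and 8 not called. Of all genes tested, 2.43% were higher and 2.61% lower. The first-order counts were the same by edgeR, DESeq2 and voom and also at an unadjusted edgeR p under 0.05. The median log2 difference of the first-order markers was 0.27. Of 16 higher-order markers, 6 were lower (Nxph1, Foxp2, Pcdh10, Cdh6, Penk and Calb1), 1 was higher (Epha3) and 9 were not called, with a median of -0.40. Without the number as a term, Penk had an adjusted p of 0.188. These lists were drawn up with earlier results of these libraries known, so their direction is not independent evidence. By number, the first-order median was 0.13, 0.44, 0.28 and 0.37 and the higher-order median -0.35, -0.82, -0.21 and -0.48. The share of posterior nucleus tissue in each dissection was not tested.

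Single members show the size of these differences. Tnnt1, a troponin T that marks first-order nuclei, was at 11.95, 12.6, 11.1 and 15.4 CPM in ALBSF and at 30.1, 35.8, 33.5 and 37.1 CPM in PMBSF, 2.68-fold higher (adjusted p = 1.81e-06). Nxph1, a neurexophilin that binds alpha-neurexins, was at 29.4, 34.1, 29.9 and 23.7 CPM and at 11.6, 9.97, 11.5 and 9.15 CPM, 2.76-fold lower (adjusted p = 3.93e-06). The call of Calb1, the calcium buffer calbindin, was lost without number 2 (adjusted p = 0.161), without number 3 (0.216) and in DESeq2 (0.237), and that of Epha3 without number 3 (0.0631). Tcf7l2, a Wnt effector and selector factor of thalamic neurons, was at 869.7, 1188, 1287 and 1295 CPM in ALBSF and at 741, 598, 591 and 809 CPM in PMBSF. Every PMBSF library lay below every ALBSF library, and the log2 difference was -0.76 ± 0.14 (adjusted p = 0.00869), a call lost without number 4 (0.0784). In the list of 38 relay neuron genes 7 were higher and 10 lower, with a median of -0.09.

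Adhesion genes come next. Of 16 classical and type II cadherins, which bind like to like between cells, 6 were lower and 2 higher, where 5.04% of all genes tested were called. Cdh9 was at 1.36, 4.28, 4.03 and 3.22 CPM in ALBSF and at 0.815, 0.432, 0.704 and 0.663 CPM in PMBSF (4.61-fold lower, adjusted p = 0.00298; 0.303 with the level of meningeal fibroblast markers as a further term, where the log2 difference of -2.20 became -0.998), and Cdh10 at 20.6, 19.1, 20.1 and 19.99 and 13.3, 9.41, 9.18 and 9.02 CPM (log2 -0.98 ± 0.10, adjusted p = 0.000204). Cdh6 fell from 182–204 to 96.2–136 CPM, and Cdh4 from 33.6–41.7 to 18.6–27.1 CPM (adjusted p = 0.00126 and 0.00183). Cdh8 alone among the type II members called was higher, at 107, 98.7, 83.1 and 73.9 CPM in ALBSF and 183, 149, 135 and 123 CPM in PMBSF (log2 0.70 ± 0.06, adjusted p = 5.91e-05). Of 12 delta protocadherins, 4 were lower and none higher with edgeR (3 and none with DESeq2, 4 and none with voom, 5 and 1 at an unadjusted edgeR p under 0.05). Pcdh11x, on the X chromosome, was at 61.6, 64.1, 66.3 and 47.9 and 27.3, 23.8, 26.2 and 24.5 CPM (2.34-fold lower, adjusted p = 5.55e-06), and it stayed called without the libraries numbered 2.

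Contactins split within the family. Cntn3 and the contactin-associated gene Cntnap3 were lower (Cntnap3 was at 0.465–1.77 CPM in ALBSF and 0.0272–0.282 CPM in PMBSF, adjusted p = 0.00249). Cntn4 was at 39.6, 31.4, 27.9 and 21.3 CPM in ALBSF and 54.1, 39.4, 39.6 and 32.0 CPM in PMBSF, higher within each number although the ranges of the territories overlapped (log2 0.47 ± 0.06, adjusted p = 0.00141; 0.338 without the number as a term). Cntn6 was also higher within each number, with 23.0–34.5 CPM in ALBSF and 34.7–55.9 CPM in PMBSF and no overlap (log2 0.51 ± 0.08, adjusted p = 0.00277). Of 44 immunoglobulin and contactin genes, 5 were higher and 5 lower, 9 and 3 when libraries were scaled by their totals, and 3 and 4 without number 2.

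Called synaptic organisers were mostly lower in PMBSF: 14 of 55 tested were lower and 4 higher, against 2.61% and 2.43% of all genes. Their median was -0.24 (-0.14 under scaling by totals, where 11 were lower and 7 higher). Teneurins, the partners of latrophilins across the synapse, divided. Tenm1 was at 58.4, 72.1, 83.3 and 68.6 CPM in ALBSF and at 28.7, 37.0, 37.1 and 35.3 CPM in PMBSF, 2.04-fold lower (adjusted p = 3.79e-06). Tenm2 was at 39.3, 43.0, 39.3 and 17.9 CPM and at 105, 79.9, 76.2 and 51.1 CPM, 2.28-fold higher (adjusted p = 4.56e-05), and Tenm3 at 23.0, 24.5, 22.9 and 21.1 and 37.9, 38.2, 43.3 and 37.1 CPM, 1.71-fold higher (adjusted p = 6.53e-05). Latrophilin 1, Adgrl1, fell with Adgrl2, from 159–199.7 to 91.9–148 CPM (log2 -0.58 ± 0.07, adjusted p = 0.000674). Cerebellins, secreted bridges between neurexins and delta receptors, also divided: Cbln1 fell from 11.5–19.1 to 5.70–9.47 CPM and Cbln4 rose from 6.82–12.1 to 15.5–27.5 CPM (adjusted p = 0.000717 and 2.84e-05). Slitrk6, a leucine-rich repeat organiser, was at 29.3, 32.5, 34.9 and 38.7 CPM and at 15.5, 13.5, 14.6 and 21.6 CPM (log2 -1.07 ± 0.09, adjusted p = 3.85e-05).

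Guidance genes were counted by family. Of 30 semaphorin, plexin and neuropilin genes 4 were lower and none higher with edgeR and DESeq2 (6 and 1 with voom, 12 and 2 at an unadjusted edgeR p under 0.05). Sema3c joined Plxna2, with 1.53–2.42 CPM in ALBSF and 0.536–1.32 CPM in PMBSF (adjusted p = 0.00645, or 0.0508 without the number as a term). Of 21 ephrin and Eph receptor genes 3 were lower and 1 higher. Epha4, a receptor for both ephrin classes, was at 137, 128, 126 and 131 and 92.4, 79.1, 106 and 104 CPM (log2 -0.46 ± 0.08, adjusted p = 0.0052), and Ephb6 fell from 20.5–24.6 to 10.9–17.1 CPM (adjusted p = 0.00308). Robo1, a receptor for Slit repellents, was at 15.8, 18.7, 20.3 and 19.5 CPM and at 10.4, 9.38, 10.8 and 10.9 CPM, 1.79-fold lower (adjusted p = 0.000237). Lrrc4c, a ligand of netrin-G, rose from 45.6–53.5 to 59.2–66.5 CPM (log2 0.37 ± 0.05, adjusted p = 0.00298), a call lost without number 4 (0.0506). Robo1 and Lrrc4c were the only called genes of 33 in the netrin, Slit and Robo list (6.06%, against 5.04% of all genes). None of 17 integrin genes was called with edgeR, DESeq2 or voom, and 5 were lower and 0 higher at an unadjusted edgeR p under 0.05.

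Ligands, antagonists and receptors of the BMP and activin pathways were called on both sides. BMPs and activins are secreted dimers of the TGF-beta family that signal through paired serine kinase receptors, and noggin, gremlin and follistatin bind them outside the cell. Inhba, the activin beta A subunit, was at 8.47, 6.44, 7.90 and 14.6 CPM in ALBSF and at 1.79, 0.555, 2.42 and 1.17 CPM in PMBSF, 6.32-fold lower (adjusted p = 0.000237). Inhbb, the beta B subunit, was at 6.84, 8.03, 6.85 and 4.65 CPM and at 2.58, 2.78, 3.13 and 2.49 CPM, 2.37-fold lower (adjusted p = 0.000483). No PMBSF library reached the ALBSF range for either subunit. Fst, the activin antagonist follistatin, fell from 5.21–9.59 to 0.733–4.07 CPM (log2 -1.66, adjusted p = 0.0159). Its call was lost without number 3 (log2 -1.70, adjusted p = 0.0884), in DESeq2 (0.0648) and without the number as a term (0.0689). The receptor gene Acvr1 fell from 9.39–11.2 to 5.71–8.65 CPM (log2 -0.63, adjusted p = 0.00707), a call lost without number 4 (log2 -0.64, adjusted p = 0.0585).

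Bmp6, a BMP ligand, was at 2.12, 2.55, 2.16 and 2.72 CPM in ALBSF and at 3.56, 7.59, 3.97 and 4.57 CPM in PMBSF (log2 1.00 ± 0.17, adjusted p = 0.00694). The antagonist Nog was at 33.8, 16.8, 20.5 and 16.4 CPM and at 60.8, 24.4, 31.4 and 29.5 CPM; number 1 was highest in both territories, so the ranges overlapped although every number rose (log2 0.72 ± 0.07, adjusted p = 0.000211; 0.313 without the number as a term). Grem1 was at 0.498–1.01 CPM and at 1.91–2.62 CPM (2.93-fold higher, adjusted p = 0.00429). Of the 43 BMP, activin and TGF-beta genes tested, 5 were higher and 5 lower, with a median of 0.01.

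Wnt and FGF genes were called in both directions. Wif1, a Wnt-binding inhibitor, was at 1.39, 0.601, 0.522 and 0.930 CPM in ALBSF and at 5.92, 3.64, 2.90 and 3.66 CPM in PMBSF, 4.74-fold higher (adjusted p = 6.18e-05), and Sfrp2, another inhibitor, rose from 16.1–22.1 to 27.8–31.6 CPM (adjusted p = 0.00221). Rspo3, an R-spondin that potentiates Wnt signals, fell from 1.03–2.12 to 0.315–0.555 CPM (adjusted p = 0.00385). Lgr5, an R-spondin receptor, rose from 0.299–0.863 to 0.946–2.17 CPM (adjusted p = 0.00544, or 0.0833 without the number as a term). Of 46 Wnt pathway genes 4 were higher and 3 lower. Fgf10 was at 1.29, 0.566, 0.557 and 0.399 and 3.23, 1.70, 1.52 and 1.58 CPM (2.92-fold higher, adjusted p = 0.00299, or 0.0961 without the number as a term). Of 47 genes of the FGF, hedgehog, Notch and retinoid list 5 were higher and 1 lower (3 and 1 without number 2). The lower one was Fgf9, at 43.5–59.98 CPM and 37.8–45.1 CPM (log2 -0.30 ± 0.06, adjusted p = 0.0191), and its call was lost without number 3 (0.106, log2 -0.27) or number 4 (0.157, log2 -0.27). Among neurotrophic factors, Ntf3, or neurotrophin 3, was at 13.6, 8.60, 17.6 and 19.8 CPM and at 6.79, 3.55, 11.2 and 10.8 CPM, lower in every number with overlapping ranges (log2 -0.93 ± 0.11, adjusted p = 0.000414; 0.275 without the number as a term).

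**Figure D4:**
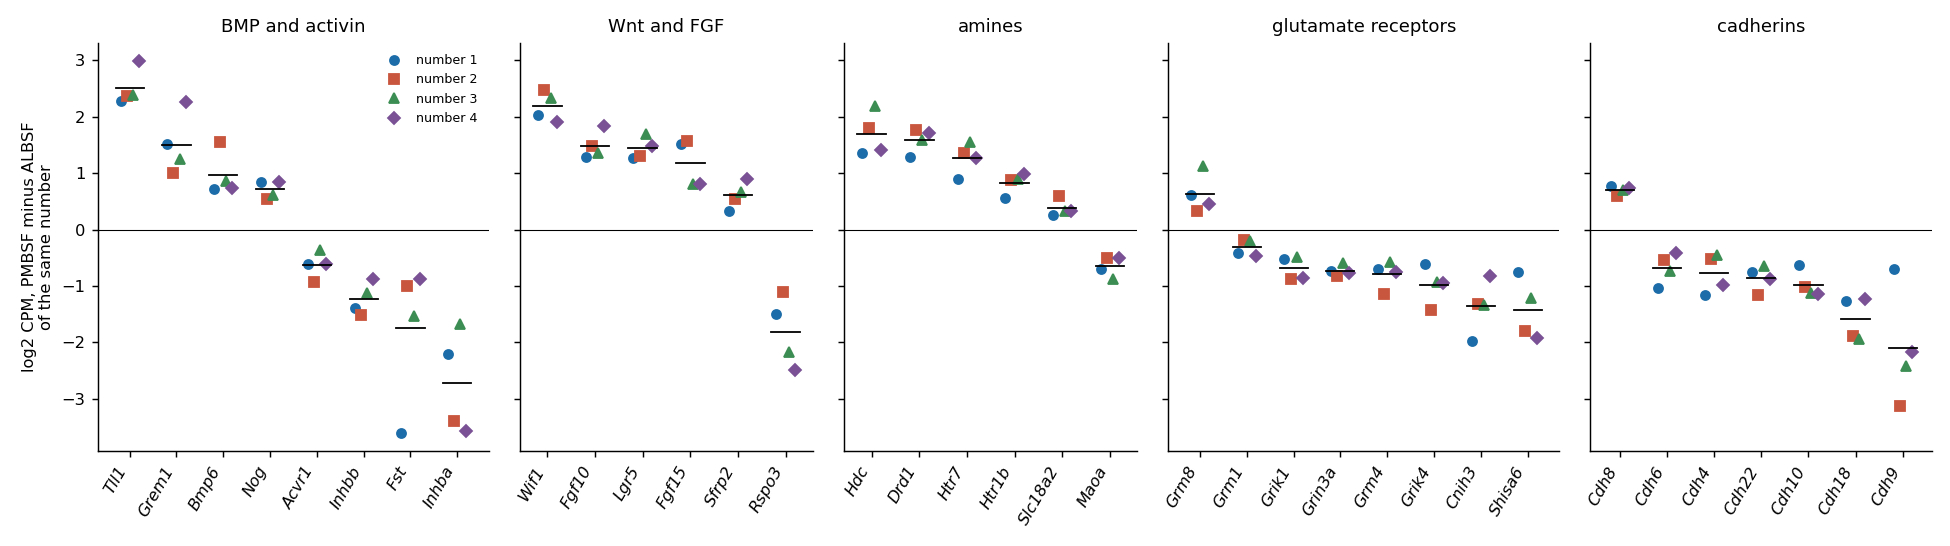
Log2 CPM differences, PMBSF minus ALBSF, within each number (points) and their mean (bar) for called genes of 5 groups. Activin subunits, the activin antagonist Fst, most glutamate receptor genes and most cadherins lie below 0 in all 4 numbers. The BMP antagonists Nog and Grem1, Wnt inhibitors and the amine genes other than Maoa lie above 0.

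Matrix and heparan sulfate genes were called in both directions. Gpc5, a glypican core protein, was at 4.05, 2.83, 2.54 and 2.66 CPM in ALBSF and at 8.85, 6.33, 9.29 and 7.51 CPM in PMBSF, 2.65-fold higher (adjusted p = 0.000268). Hs3st1, a 3-O-sulfotransferase, rose with Hs6st2, from 105–131 to 162–214 CPM (log2 0.67 ± 0.10, adjusted p = 0.00221). Sulf1, which removes 6-O-sulfate, fell from 3.92–6.58 to 1.63–5.14 CPM (log2 -1.01, adjusted p = 0.00842), a call lost without number 3 (log2 -0.89, adjusted p = 0.0708). In the heparan and chondroitin sulfate list 4 of 46 were higher and 3 lower. In the matrix list 5 of 60 were higher and 10 lower, against 8 and 5 under scaling by totals and 2 and 10 without number 2. Among the lower ones was Col4a2, a basement membrane collagen, with 55.5–69.7 and 28.3–47.6 CPM (adjusted p = 0.000647).

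Called glutamate receptor genes were mostly lower in PMBSF: 10 of 36 tested were lower and 1 was higher, against 2.61% and 2.43% of all genes. Their median was -0.19 (-0.09 under scaling by totals, where 7 were lower and 1 higher), and 41 of the 47 lists had a median under 0. Grin3a, an NMDA receptor subunit of low calcium permeability, was at 80.6, 79.1, 96.3 and 117 CPM in ALBSF and at 48.2, 44.5, 64.0 and 68.7 CPM in PMBSF (log2 -0.73 ± 0.06, adjusted p = 4.44e-05). Cnih3, an AMPA receptor auxiliary protein, was at 19.6, 22.7, 25.3 and 16.9 CPM and at 4.94, 9.10, 9.998 and 9.50 CPM, 2.56-fold lower (adjusted p = 0.000254). Shisa6, another AMPA receptor partner, fell from 5.41–9.36 to 2.30–4.00 CPM, the kainate subunit gene Grik4 from 5.11–6.75 to 2.28–3.49 CPM, and the presynaptic receptor gene Grm4 from 22.4–28.1 to 10.1–17.5 CPM (adjusted p = 0.00108, 0.00397 and 0.000483). Grm8 was the one higher, from 3.97–5.68 to 6.09–8.73 CPM (log2 0.64, adjusted p = 0.0258). Its call was lost without number 3 (log2 0.47, adjusted p = 0.118) or number 4 (log2 0.68, adjusted p = 0.103). Slc17a7, the vesicular glutamate transporter of cortex that relay neurons gain after birth, was at 28.1, 16.3, 37.6 and 50.1 CPM and at 7.71, 9.53, 23.6 and 27.7 CPM, lower in each number with overlapping ranges (log2 -1.02 ± 0.15, adjusted p = 0.00308).

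Of 34 monoamine and acetylcholine genes tested, 5 were higher and 1 lower, and the median log2 difference of all 34 was -0.01. Htr7, a Gs-coupled serotonin receptor, was at 25.0, 15.5, 10.4 and 21.7 CPM in ALBSF and at 46.4, 39.6, 30.7 and 52.5 CPM in PMBSF, 2.40-fold higher (adjusted p = 2.51e-05). Htr1b, the serotonin receptor of thalamocortical terminals, was at 27.8, 30.8, 26.0 and 27.8 CPM and at 40.8, 57.1, 48.7 and 54.8 CPM, 1.78-fold higher (adjusted p = 8.37e-05). Maoa, the enzyme that breaks serotonin down, was at 53.01, 50.4, 59.4 and 52.8 CPM and at 32.6, 35.5, 32.4 and 37.1 CPM, 1.57-fold lower (adjusted p = 0.000341). Each of these genes separated the territories. Hdc, the enzyme of histamine synthesis and also a hypothalamic marker, rose from 2.92–6.97 to 9.59–17.9 CPM, and Drd1, the D1 dopamine receptor and also a striatal marker, from 0.498–1.73 to 1.77–6.08 CPM (adjusted p = 4.56e-05 and 0.000342). Without the number as a term, Drd1 had an adjusted p of 0.0775. Slc18a2, the vesicular monoamine transporter, rose from 176–229 to 221–275 CPM (log2 0.38, adjusted p = 0.0124). Its call was lost without number 2 (log2 0.31, adjusted p = 0.0642) or number 4 (log2 0.39, adjusted p = 0.109).

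Among peptides, Gal, which encodes galanin, was at 52.4, 47.7, 51.8 and 41.0 CPM in ALBSF and at 101.1, 103, 98.2 and 99.8 CPM in PMBSF, 2.09-fold higher (adjusted p = 7.35e-06). The spread within each territory was small beside this step. Npy1r, a neuropeptide Y receptor, fell from 10.8–19.5 to 7.72–9.72 CPM (adjusted p = 0.00221), and Vipr2, a receptor for vasoactive intestinal peptide, rose from 4.10–6.21 to 7.10–8.80 CPM (adjusted p = 0.00418). Neuropeptide genes gave 4 higher and 6 lower of 51 (6 and 6 under scaling by totals).

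Subunits of A-type potassium channels were called on both sides. The pore gene Kcnd2 was at 62.7, 68.2, 75.2 and 63.9 CPM in ALBSF and at 38.2, 46.5, 53.6 and 45.1 CPM in PMBSF (log2 -0.57 ± 0.06, adjusted p = 0.000272), and the auxiliary Kcnab1 fell from 14.2–24.1 to 7.03–12.9 CPM (adjusted p = 0.000261). Kcnip4, a calcium-binding partner of Kcnd channels, rose from 20.9–24.8 to 34.7–43.3 CPM (adjusted p = 7.28e-05). Of 63 potassium channel genes 1 was higher and 6 lower, but 6 were higher and 4 lower under scaling by totals, so the count for the family turns with the scaling. Vesicle and release genes gave 3 higher and 8 lower of 49 (5 and 5 under scaling by totals). There Rims2, an active zone scaffold, rose from 54.7–61.9 to 78.5–90.8 CPM and Cplx2, a complexin, fell from 11.6–21.8 to 8.01–9.02 CPM (adjusted p = 0.000204 and 0.00143). The copines Cpne4 and Cpne7 fell with Cpne6, and Cpne8 rose (log2 -0.73 ± 0.07, -0.65 ± 0.09 and 0.54 ± 0.07).

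Cyclic nucleotide, calcium and G protein signalling genes gave 5 higher and 10 lower of 70, but 9 higher and 4 lower under scaling by totals. Elmo1, a partner of Dock proteins in Rac activation, was among the most abundant called genes, at 535, 429.8, 726 and 743 CPM in ALBSF and at 223, 306, 358 and 394 CPM in PMBSF, 1.90-fold lower (adjusted p = 0.000678). Adcy2, an adenylyl cyclase, rose from 34.9–55.0 to 74.0–94.4 CPM (adjusted p = 0.000395). Vsnl1, a neuronal calcium sensor, was at 50.3, 45.2, 69.0 and 113 CPM and at 16.2, 19.6, 38.7 and 55.0 CPM. It was lower within every number, but PMBSF number 4 exceeded ALBSF numbers 1 and 2 (log2 -1.17 ± 0.10, adjusted p = 7.72e-05; 0.221 without the number as a term). None of 30 cell cycle genes was called with edgeR, DESeq2 or voom, with a median of -0.16, and 6 were lower and 0 higher at an unadjusted edgeR p under 0.05.

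**Figure D5:**
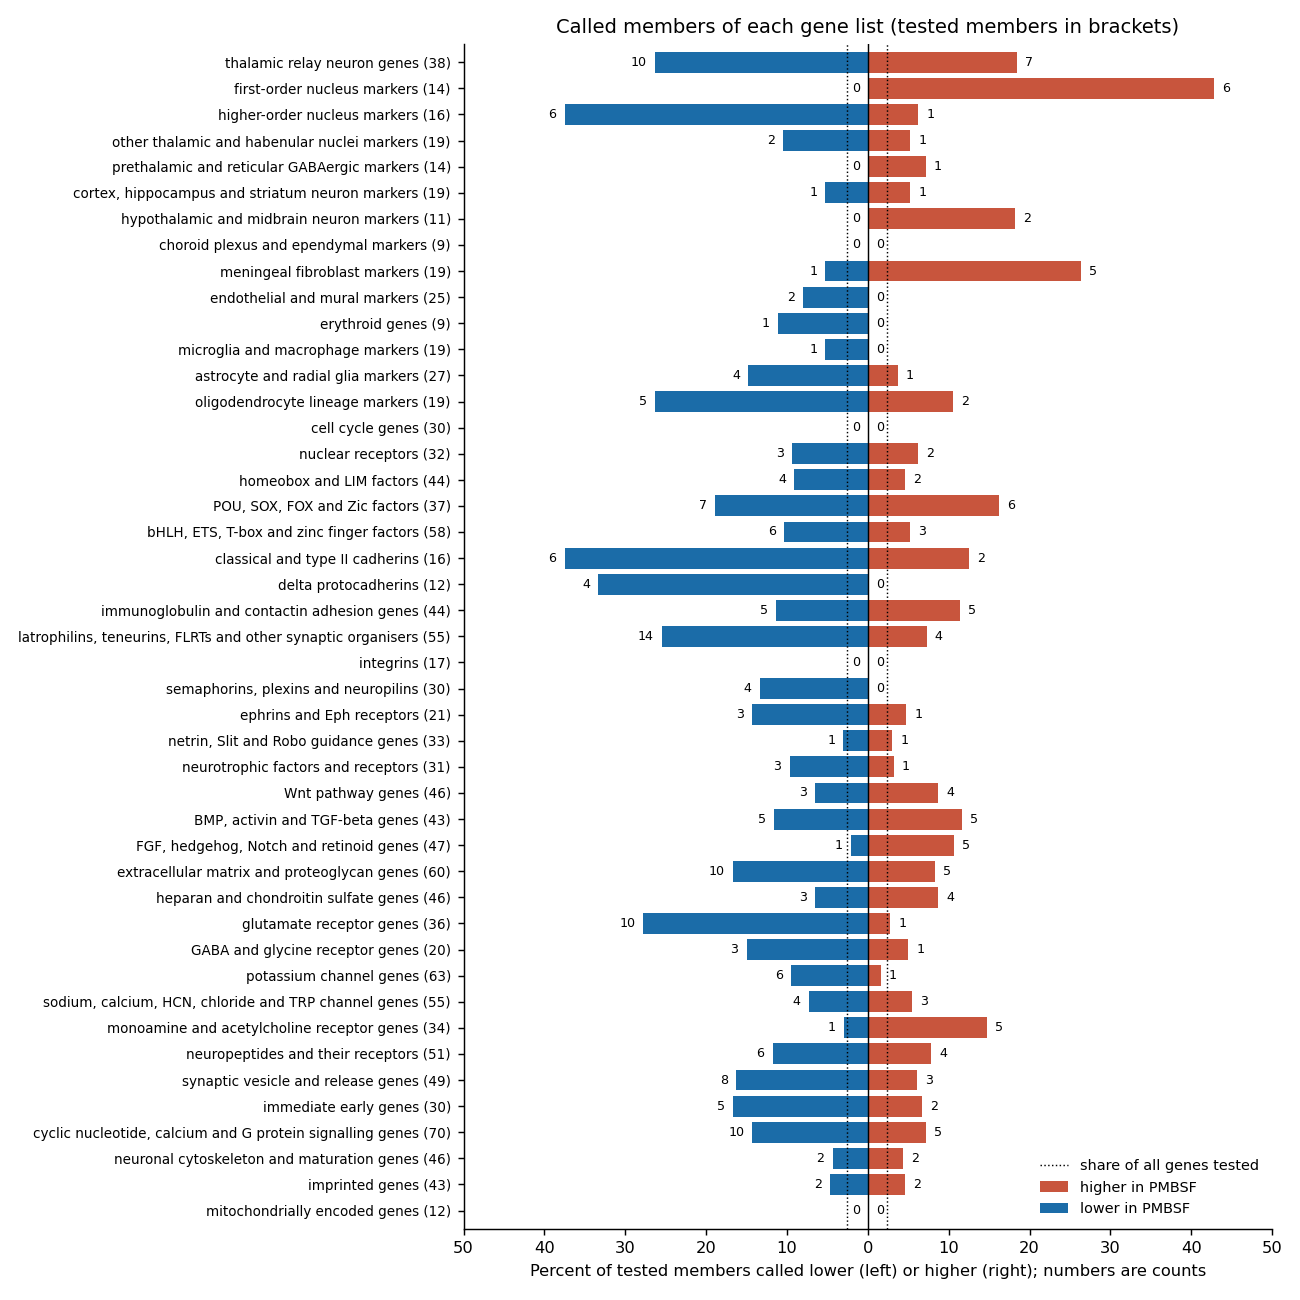
Percent of the tested members of each list that were called higher (right) or lower (left) in PMBSF, with counts at the bar ends and dotted lines at the 2.43% and 2.61% of all genes. First-order markers lie to the right, and higher-order markers, cadherins and glutamate receptors mostly to the left.

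Markers of neighbouring tissue moved with the comparison in some libraries. For meningeal fibroblasts, 5 of 19 genes were called higher and 1 lower, with a median log2 difference of 1.18, and no member lacked counts. The mean log2 CPM of this list was 0.615, 1.05, 0.956 and 0.914 in ALBSF numbers 1 to 4 and 0.738, 2.75, 1.66 and 1.60 in PMBSF. Number 1 hardly differed, and PMBSF number 2 was highest. Col3a1, a collagen of these cells, was at 3.78, 2.69, 3.13 and 3.32 CPM in ALBSF and at 2.88, 23.8, 8.59 and 5.93 CPM in PMBSF. Without number 2 the median was 0.66, and 1 gene was higher and 1 lower. The part of these cells in the genes above was not tested directly, but with the list's level as a further term 159 of the 857 genes stayed called, among them 62 of the 106 called genes named here, in a fit with 2 residual degrees of freedom.

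Of 11 hypothalamic and midbrain markers tested (26 listed, none without counts), 2 were higher, Gal and Hdc, and 0 lower, with a median of -0.13. The summed level of the list was 60.5 to 78.8 CPM in ALBSF and 125 to 158 CPM in PMBSF, and most of it was Gal. The cortex, hippocampus and striatum list gave 1 higher (Drd1) and 1 lower (Foxp1) of 19, and summed to 181 to 205 CPM in ALBSF and 129 to 179 CPM in PMBSF. Neither sum overlapped between the territories.

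Sp9, a marker of the prethalamus, was at 2.26, 0.637, 0.243 and 0.399 CPM in ALBSF and at 21.5, 3.52, 2.06 and 0.631 CPM in PMBSF. It was highest in number 1 of both territories, with overlapping ranges (log2 2.69 ± 0.31, adjusted p = 0.000414, or 0.206 without the number as a term). Sp9 was the only one called of 14 prethalamic genes. Their summed level ran from 11.4 to 92.5 CPM in ALBSF and from 20.1 to 78.7 CPM in PMBSF. Ttr, the choroid plexus transthyretin, was at 2.89, 99.3, 3.76 and 2.49 CPM and at 2.498, 22.1, 2.704 and 3.44 CPM, high in both libraries numbered 2. Oligodendrocyte lineage genes gave 2 higher and 5 lower of 19 (3 and 3 under scaling by totals). Their summed level was 1300.0 to 1555 CPM in ALBSF and 1231 to 1275 CPM in PMBSF, with no overlap, and their defining factor Sox10 fell from 7.17–9.18 to 4.70–5.83 CPM (adjusted p = 0.0053). Astrocyte and radial glia genes gave 1 higher and 4 lower of 27 (3 and 3 under scaling by totals), and microglial genes 0 higher and 1 lower of 19 with edgeR (1 and 0 with DESeq2, 1 and 1 with voom, 1 and 6 at an unadjusted edgeR p under 0.05). The part of these cells in the results was not tested.

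Some genes whose pools differed widely were called only with the number term, and the examples here were picked among them. Zic4 was at 15.04, 11.5, 10.7 and 7.80 CPM in ALBSF and at 50.6, 20.4, 24.6 and 15.7 CPM in PMBSF, and rose within each number by 1.75, 0.82, 1.19 and 1.00 on the log2 scale (adjusted p = 0.000254; 0.0822 without the term). Its gene overlaps that of Zic1, so reads could be shared. Serping1, the C1 inhibitor of complement, was at 21.3, 13.02, 10.2 and 12.5 CPM and at 38.8, 26.3, 20.1 and 23.4 CPM, with adjusted p = 2.32e-05 with the term and 0.0942 without. Grik1, a kainate receptor subunit gene, was at 22.9, 19.2, 29.2 and 32.9 CPM and at 15.9, 10.5, 20.9 and 18.2 CPM, with 0.000796 and 0.176. In each of them the ALBSF and PMBSF values rank the pools in nearly the same order.

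A last group concerns counting. Lars2, a mitochondrial leucyl-tRNA synthetase, was at 1195, 1828, 3543 and 2112 CPM in ALBSF and at 311, 1649, 503 and 931 CPM in PMBSF, lower by a log2 of -1.53 ± 0.33 (adjusted p = 0.0214). The call was lost without number 1 (log2 -1.37, adjusted p = 0.0754), number 3 (log2 -1.09, 0.0774) or number 4 (log2 -1.66, 0.0968). It was also lost in DESeq2 (0.274) and without the number as a term (0.215). Mir6236 moved with it, with 2.66, 11.9, 7.86 and 10.4 CPM and 0.896, 4.69, 1.18 and 2.81 CPM. The ribosomal RNA entry Rn18s-rs5 was at 3724, 5413, 4520 and 4532 CPM in ALBSF and 4185, 5786, 4902 and 5135 CPM in PMBSF, and mt-Rnr2 at 4077, 6765, 6677 and 5539 CPM and 2642, 7280, 4349 and 4438 CPM. How reads that align to several places were counted is not stated, so the source of the Lars2 and Mir6236 reads is uncertain.

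Called genes were unevenly placed by gene span. When protein coding genes were split by span into 4 groups of equal size, 9.27% of the 3517 longest (65.5 to 2962 kb) were called, against 4.95, 4.29 and 3.87% in the other groups, from the shortest up. Neighbouring protein coding genes were both called in 77 cases, 22 of them both higher, 38 both lower and 17 opposite. Of all 14066 protein coding genes tested 787 were called (5.60%). How many such pairs arise without any link between neighbours was not tested. On chromosome 15, Cdh6, Cdh9 and Cdh10 were consecutive tested genes and all lower, with gaps of 3554502 and 1961486 bases between them. This neighbour group was picked after its values were seen.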

How the data were processed

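Raw counts per Ensembl gene were deposited by the authors for each library. The authors aligned the reads with STAR 2.7.9a to GRCm39 and counted them on Ensembl release 104 genes with featureCounts (Subread 2.0.1), after FastQC 0.11.9 and with SAMtools 1.15, per the series design text and processing notes of the submitters. The notes also list mm10, and settings for strand and for reads that align to several places are not given in the sources used here. Poly-A RNA was read as 150 nt pairs, per the labels' protocols.

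Counts of the 8 control libraries were fitted with edgeR 4.0.16 in R 4.3.3 (quasi-likelihood test, terms for title number and territory, filterByExpr by territory, TMM scaling), which left 17000 genes. Calls needed a Benjamini-Hochberg adjusted p under 0.05 over these genes. CPM are TMM-scaled, and log2 values of single libraries use a prior count of 2. Symbols and positions came from GENCODE mouse release 39. The scripts were tested on simulated data. Alternatives used DESeq2 1.42.0, limma 3.58.1 (voom), other scalings and filters, a meningeal covariate, no number term, or 3 of the 4 numbers. A fit that leaves out a number drops both of its libraries. The pairing of the title numbers was taken from the data, since the labels do not say what a number stands for: every same-numbered pair correlated above 0.1.

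Genes were named by rule: the 12 largest rises and 12 largest falls among called genes with a mean of at least 1 CPM and 1 sign in all 4 numbers, the next 6 and 6 by p, 8 and 8 called only with the number term, 5 and 5 of highest level, up to 5 of smallest p in each list, 10 by number term, and check genes. Acvr1, Adgrl1, Bmp6, Calb1, Cbln1, Cpne7, Grik4, Grm8, Slc17a7, Slc18a2, Tenm2, Tenm3 and Zic1 were added after their values were seen. The members, gene lists and tests were chosen with earlier results of these data known. One gene is not reported here.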

Additional observations from a re-analysis of the deposited data

Results flagged for a closer look

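In 14 of 244 groups of 4 libraries, 1 library stood far from the other 3 by Dixon's gap at the 95% level, and chance alone gives about 1 in 20. Of the 14, 4 concerned PMBSF number 1 and 4 ALBSF number 2. In ALBSF number 2, Ddx3y and Kdm5d had 0 counts, which allows up to 0.106 CPM (3 counts, counting error only), while the other ALBSF libraries held 11.8 to 32.1 and 3.78 to 6.92 CPM. Ttr stood at 99.3 CPM in ALBSF number 2 against at most 3.76 CPM in the others, and at 22.1 CPM in PMBSF number 2 against at most 3.44 CPM. Rps2-ps10 was at 25.2 CPM in PMBSF number 2, and Rps2-ps13 at 166 and 131 CPM in both libraries numbered 1.

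Among the called genes, PMBSF number 1 was apart for Cdh10 (13.3 CPM, others up to 9.41), Cnih3 (4.94 CPM, others from 9.10) and Fgf10 (3.23 CPM, others up to 1.70). Cntn3 was at 2.82 CPM in PMBSF number 3, where the others reached at most 1.33 CPM. Col4a2 was at 69.7 CPM in ALBSF number 2, Shisa6 at 5.41 CPM in ALBSF number 1 and Tenm2 at 17.9 CPM in ALBSF number 4. Each of these 7 genes kept its call whichever number was left out.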

How the results depend on the processing

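The count of 857 called genes (413 higher, 444 lower) was 230 (111 and 119) with no replicate block, 1450 (709 and 741) with voom and quality weights, 1643 (750 and 893) with no count filter and 223 (85 and 138) with the replicate block plus the meningeal level. Scaling by library totals gave 741 higher. In the fits with library totals and with no count filter edgeR estimated infinite prior degrees of freedom (8.35 in the reported fit). Leaving out 1 number gave 311 to 979 called genes, 125 to 442 higher and 186 to 537 lower. Number 4 gave the lowest, and such a fit has 2 residual degrees of freedom. The 701 genes that differed by number became 1388 under library totals, 2888 with no count filter and 186 to 802 when a number was left out. The voom fit with number 2 unpaired was chosen after seeing the data and gave 764 calls. The cause of these changes was not tested. Of the 106 called genes named in the text, 93 kept the call whichever number was left out, and none changed sign in any fit run.

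Signs changed only for named genes that were not called. With the meningeal level these were Col3a1 (-0.50), Gad2 (-0.60), Slc17a6 (-0.14), Lef1 (0.045), Pop4 (0.12), Gm21321 (0.58), Ttr (0.60), Xist (1.42) and Ddx3y, Eif2s3y, Kdm5d and Uty (-2.46, -2.37, -2.14 and -2.11). Over the fits that leave out a number, Ddx3y ranged from -0.25 to 1.05, Eif2s3y from -0.20 to 1.19, Kdm5d from -0.11 to 1.11, Uty from -0.21 to 1.02, Slc17a6 from -0.020 to 0.096 and Pop4 from -0.080 to 0.042, and number 2 was the one that turned the first 5. Library totals turned Gm21321 (0.13), Lef1 (0.012) and Pop4 (0.090), no replicate block Gm21321 (0.053) and Rps2-ps10 (0.071), and voom Pop4 (0.038) and Rps2-ps10 (0.023), with Pop4 at 0.0068 when number 2 was unpaired. Of the 4250 genes of lowest level (0.234 to 1.89 CPM) 1.91% were called, against 5.20 to 6.54% of the others. How much of that gap is depth was not tested.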

Other observations

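Of 20 genes tested on the mitochondrial chromosome 1 was called, a tRNA gene that was lower in PMBSF. The genes in the list of mitochondrially encoded genes all leaned to one side, though none of the list passed the test. All 12 tested had a log2 difference under 0, with a median of -0.27, or -0.18 under scaling by library totals. With edgeR 0 were called and 6 had an unadjusted edgeR p under 0.05, and DESeq2 called 5 and voom 6, all lower. The medians for numbers 1 to 4 were -0.25, -0.07, -0.25 and -0.43. Mitochondrial genes took 2.32 to 3.40% of the counts in ALBSF and 1.72 to 3.45% in PMBSF.

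Immediate early genes, which neuronal activity switches on, gave 2 higher and 5 lower of 30 (1 and 4 without number 2). Of all genes tested, 2.43% were higher and 2.61% lower. The list's lowest log2 difference, -2.66, was that of Inhba, the activin subunit gene already given above. Jund, an AP-1 subunit gene, was at 77.6, 71.8, 83.7 and 81.1 CPM in ALBSF and at 48.8, 58.0, 53.6 and 64.5 CPM in PMBSF (log2 -0.49 ± 0.07, adjusted p = 0.00301), with no overlap. Fos, the classical activity marker, was at 9.99, 5.17, 5.50 and 4.65 CPM and at 7.17, 4.63, 4.08 and 4.07 CPM, with an adjusted p of 0.168. Hbb-bh1, an embryonic globin, was at 1.36, 2.41, 2.75 and 2.16 CPM and at 0.0543, 0.463, 0.648 and 0.410 CPM, 5.83-fold lower (adjusted p = 0.000853), and the adult globin gene Hbb-bs at 339–488 and 314–413 CPM (adjusted p = 0.209). Globin genes are near copies of each other, so their counts are uncertain. Of 43 imprinted genes 2 were higher and 2 lower, and Mest fell from 186–292 to 116–197 CPM within overlapping ranges (log2 -0.52 ± 0.09, adjusted p = 0.00602).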
